A study of Mus musculus with 18 samples.

Results

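A set of 45 genes of mitosis and the spindle was followed across every library of the series. The genes were taken by symbol from a list of 45 symbols, all of which were present among the 34591 symbols of each count file. The list covers the kinases and cyclins that start mitosis, the chromosomal passenger complex, the kinetochore, the spindle checkpoint, the anaphase machinery, mitotic kinesins, spindle microtubule proteins, cytokinesis factors and proteins of the condensed chromosome. It was not chosen by a threshold on the counts, but earlier results of these data were known when it was drawn up.

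The cells were 4T1, a mouse mammary carcinoma line, and poly(A) RNA was sequenced from 18 cultures in 6 groups of 3. Parental cells were moved to fresh RPMI with 2 ng/mL recombinant human TGFb1, a cytokine known to restrain the division of epithelial cells, and their reference cultures were moved to fresh RPMI alone; RNA of both was taken after 24 h. The other 4 groups came from puromycin-selected lines made with a lentivirus for Wisp1 (a secreted matricellular protein) or with the empty vector (EV), each cultured on collagen type I-coated plastic and on uncoated tissue culture plastic up to subconfluence. All 6 groups therefore carry the 4T1 background, and all 12 libraries of the stable lines carry a vector and puromycin selection. The labels describe 1 stable line per vector and do not say whether it was a clone or a pool. Replicates are separate samples in the labels, which do not say whether cultures were grown on different days, so p-values measure only the spread between these samples.

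Dividing cells make most of these transcripts in G2 and mitosis. In G0 and G1 the DREAM complex holds many of the genes silent through a promoter element called the CHR (cell cycle genes homology region), and later in the cycle B-Myb and FoxM1 join the MuvB core at the same genes and activate them, while NF-Y binds nearby CCAAT boxes. At the protein level Cdk1 with B-type cyclins drives entry, the checkpoint holds anaphase until kinetochores are attached, and the anaphase-promoting complex then releases separase and ends the mitotic state. A lower level of these RNAs in a culture can mean fewer cells in G2 and mitosis or less RNA in each such cell, and bulk counts cannot tell these apart.

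Promoter windows of 300 bases (250 before and 50 from the transcription start) in RefSeq, build GRCm38.p6, were matched by symbol to 37 of the 45 genes. Spc24, Aurkb, Incenp, Tpx2, Ccna2, Foxm1, Cdc25c and Kif20a had no entry. TTTGAA, the usual core of a CHR, was present on either strand in 27 of 37 windows (73%), against 18.1% of the windows of 27025 genes. CCAAT on either strand was present in 28 of 37 (75.7%), against 37.9% of all genes. The 2 patterns can share an end letter, in which case both were counted, and 23 of 37 windows (62.2%) held both, against 7.12% of all genes. At least 2 CCAAT boxes were present in 19 of 37 (51.4%), against 12.2%. Of the 34 TTTGAA matches in these genes, 27 (79.4%) began within 50 bases of the start, against 24.8% of the matches in all genes. A match of letters is a description and not a measured binding site.

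The promoters of 4 of the genes are shown because these genes had the smallest p-values after TGFb1 among those with both motifs. Each run covers 200 bases before and 30 bases from the start, 5′ to 3′ on the gene's strand, in the GRCm38.p6 reference. Capitals mark TTTGAA and CCAAT, or TTCAAA and ATTGG where the motif lies on the other strand.
Top2a: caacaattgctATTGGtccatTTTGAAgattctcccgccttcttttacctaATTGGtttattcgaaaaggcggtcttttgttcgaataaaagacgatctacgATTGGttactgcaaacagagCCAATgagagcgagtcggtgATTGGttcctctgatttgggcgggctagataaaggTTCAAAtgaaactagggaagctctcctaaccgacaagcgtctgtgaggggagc
Spc25: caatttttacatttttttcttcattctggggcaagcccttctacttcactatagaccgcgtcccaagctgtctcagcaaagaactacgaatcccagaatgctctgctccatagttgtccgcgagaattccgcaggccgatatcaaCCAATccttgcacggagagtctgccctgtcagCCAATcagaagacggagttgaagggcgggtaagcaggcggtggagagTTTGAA
Espl1: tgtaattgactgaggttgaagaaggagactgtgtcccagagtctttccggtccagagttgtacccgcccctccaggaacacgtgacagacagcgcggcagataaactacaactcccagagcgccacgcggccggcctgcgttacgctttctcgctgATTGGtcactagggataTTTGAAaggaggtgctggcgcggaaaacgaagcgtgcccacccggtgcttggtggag
Kif23: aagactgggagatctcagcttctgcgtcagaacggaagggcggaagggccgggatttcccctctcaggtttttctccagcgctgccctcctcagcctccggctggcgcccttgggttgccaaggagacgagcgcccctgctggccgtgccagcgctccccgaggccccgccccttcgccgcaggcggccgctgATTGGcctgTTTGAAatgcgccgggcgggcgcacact
The Top2a run is chr11:99024160-99024389 (minus strand), with 5 CCAAT boxes and 2 TTTGAA matches, one of them beginning 23 bases before the start. The Spc25 run is chr2:69206184-69206413 (minus strand), with 2 CCAAT boxes and a TTTGAA match beginning at base 25 of the transcript. The Espl1 run is chr15:102296093-102296322 (plus strand), with its single CCAAT box 44 bases and its TTTGAA match 27 bases before the start. The Kif23 run is chr9:61946770-61946999 (minus strand), with a CCAAT box beginning 7 bases before the start and TTTGAA at base 3 of the transcript. Within the 37 genes the median log2 change, TGFb1 over untreated, was −0.56 for the 27 with TTTGAA and −0.50 for the 10 without. It was −0.55 for the 23 with both motifs and −0.54 for the 14 others. The 5 with neither motif had a median of −0.57. These differences were not tested.

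The gene counts of a library came to 67.64 to 85.43 M with TGFb1 and 74.26 to 83.57 M in untreated cells. They were 50.03 to 81.03 M for Wisp1 and 54.41 to 94.4 M for EV on collagen, and 37.55 to 59.57 M for Wisp1 and 41.76 to 77.75 M for EV on plastic. No mitosis gene had fewer than 1105 counts in any library, and all 45 passed the filter on low counts in every fit. As a check of the labels, Wisp1 itself read 1089, 1120 and 1054 CPM (the count of a gene scaled to the library's size, with TMM factors over all libraries) in Wisp1 cells against 14.11, 15.73 and 16.15 CPM in EV cells on collagen, and 897.4, 907.6 and 1067 CPM against 36.8, 46.38 and 72.07 CPM on plastic. Epithelial markers (Epcam, Cdh1, Krt8, Krt18, Krt19 and Cldn7) summed to 2086 to 4695 CPM over the 18 libraries. The 4 endothelial markers summed to 0.0789 to 0.476 CPM and the 6 leukocyte markers to 3.907 to 19.94 CPM, with Cd3e at 0 in every library, and the 6 fibroblast markers summed to 16.45 to 71.31 CPM.

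**Figure D1:**
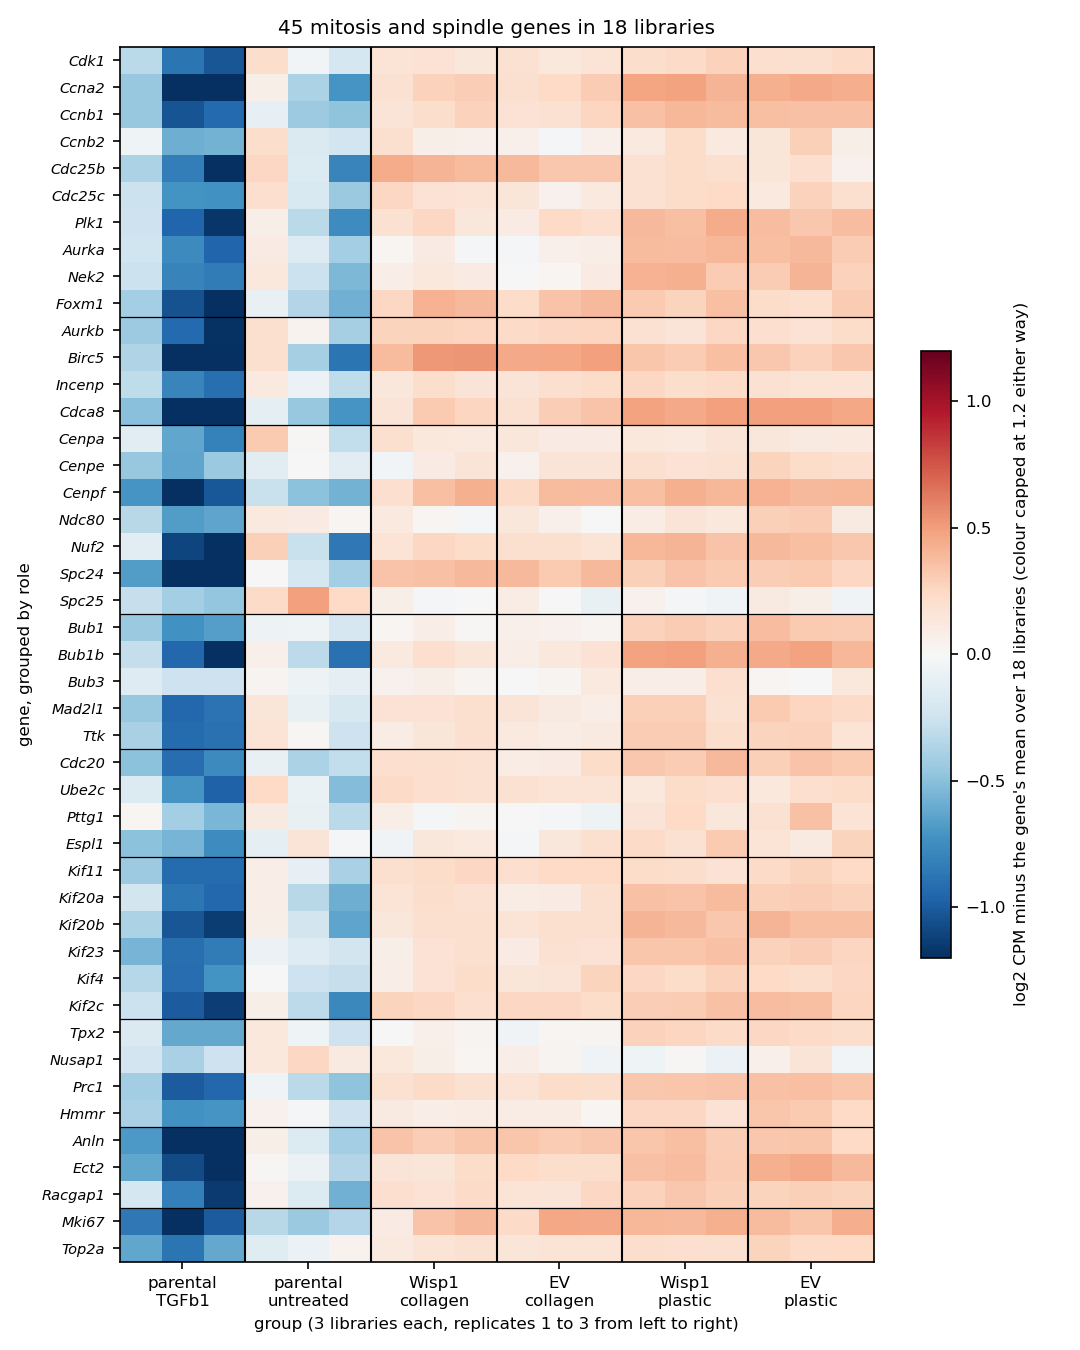
Heat map of the 45 genes (rows, grouped by role) in the 18 libraries (columns, 3 per group), coloured by log2 CPM minus the gene's mean over all libraries, with the colour capped at 1.2 either way. The TGFb1 group has the lowest mean of the 6 for all 45 genes, although the columns of TGFb1 replicate 1 and untreated replicate 3 have like medians on this scale (−0.38 and −0.39), and replicate 1 of both parental groups is paler than replicates 2 and 3 in most rows.

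Summed over the 45 genes, TGFb1 libraries held 6267, 4498 and 4510 CPM, against 8582, 7568 and 6760 CPM in untreated libraries. Every TGFb1 library lay below every untreated one. The stable lines were higher and closer together, with 9522 to 9909 CPM for Wisp1 and 9565 to 9930 CPM for EV on collagen, and 10390 to 10470 CPM for Wisp1 and 10310 to 10460 CPM for EV on plastic. Parental and stable cultures were handled under different protocols, so no test was made between them. The TGFb1 group had the lowest mean of the 6 groups for all 45 genes. The highest mean was in Wisp1 on plastic for 21 genes, EV on plastic for 15, Wisp1 on collagen for 6, untreated parental cells for 2 and EV on collagen for 1.

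The replicates of the parental groups spread widely in these genes. The median coefficient of variation over the 45 genes was 22.9% with TGFb1 and 15.1% in untreated cells, while it was 2.25 to 2.96% in the 4 stable groups. Over all genes tested it was 16.5% with TGFb1 and 15.4% in untreated cells. Replicate 1 was the highest of its group for 43 of 45 genes with TGFb1 and for 39 of 45 in untreated cells. The labels give the same 3 codes to the TGFb1 and the untreated libraries, and libraries with the same code deviated together from their group means (correlations over genes of 0.83, 0.68 and 0.81). Results are therefore given also from the fit with this code as a block, which compares each TGFb1 library with the untreated library of its code.

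The first comparison asked what TGFb1 did to the mitotic genes of parental cells. All 45 genes were lower with TGFb1, by a median of 1.46-fold (median log2 change −0.55, range −0.94 to −0.18), while the median over the 14874 genes tested was −0.007. Of these, 13 passed an adjusted p of 0.05 in edgeR without the block, all of them lower: Top2a, Spc25, Espl1, Kif23, Ndc80, Nusap1, Mki67, Bub1, Cenpe, Anln, Mad2l1, Ect2 and Hmmr. That is 28.9% of the 45, where 4.92% of all genes tested were called lower and 6.14% higher (11.1% in either direction). With the code as a block, 45 of 45 were called lower (adjusted p from 7.7e-05 to 0.03, median log2 change −0.56), where 22.5% of all genes were. The TGFb1 and untreated libraries did not overlap for 23 of 45 genes (51.1%), all with TGFb1 below, where 14.2% of all genes tested separated that way.

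All 45 genes were lower with TGFb1 inside each pair of libraries. The median log2 ratio was −0.42 in the pair with code 1, −0.69 in the pair with code 2 and −0.52 in the pair with code 3, where the median over all genes was 0.00, 0.02 and 0.01 for codes 1, 2 and 3. The count without the block depended on single libraries. It was 0 of 45 without untreated replicate 2 or without TGFb1 replicate 2, and 1 without TGFb1 replicate 3. It was 3 without untreated replicate 1 or 3, and 28 without TGFb1 replicate 1. The share of all genes called in these fits is not given here. These counts therefore cannot be weighed against it or read as particular to the mitotic genes. With the block the count was 44 of 45 without the pair with code 1, 43 without code 2 and 45 without code 3. Of all genes tested, 6261, 4344 and 6344 were called in these 3 fits, in that order. Beside this, the 6 epithelial markers summed to 2086 to 3927 CPM with TGFb1 and 3170 to 4695 CPM in untreated cells. Reads outside genes made up 11.4 to 13.5% with TGFb1 and 10.3 to 12.8% in untreated cells. The 6 fibroblast markers summed to 56.38 to 71.31 CPM with TGFb1 and 35.74 to 59.32 CPM in untreated cells, and the 6 leukocyte markers to 4.284 to 10.67 CPM with TGFb1 and 3.907 to 12.21 CPM in untreated cells. Of these 18 markers 12 passed the filter on low counts. The leukocyte marker Ptprc was called 3.87-fold lower (edgeR adjusted p = 0.018). The fibroblast markers Pdgfrb and Col1a1 were called 7.98-fold and 8.61-fold higher (edgeR adjusted p = 0.026 and 0.040). Their log2 changes had wide errors, at 3.00 ± 0.60 and 3.11 ± 0.72 SE. With the block, Epcam, Krt8, Krt18 and Krt19 were also called lower and Col1a2 higher. The fibroblast marker Pdgfra was called in neither fit (log2 change 0.11 ± 0.27 SE without the block). The part of these in the result was not tested.

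**Figure D2:**
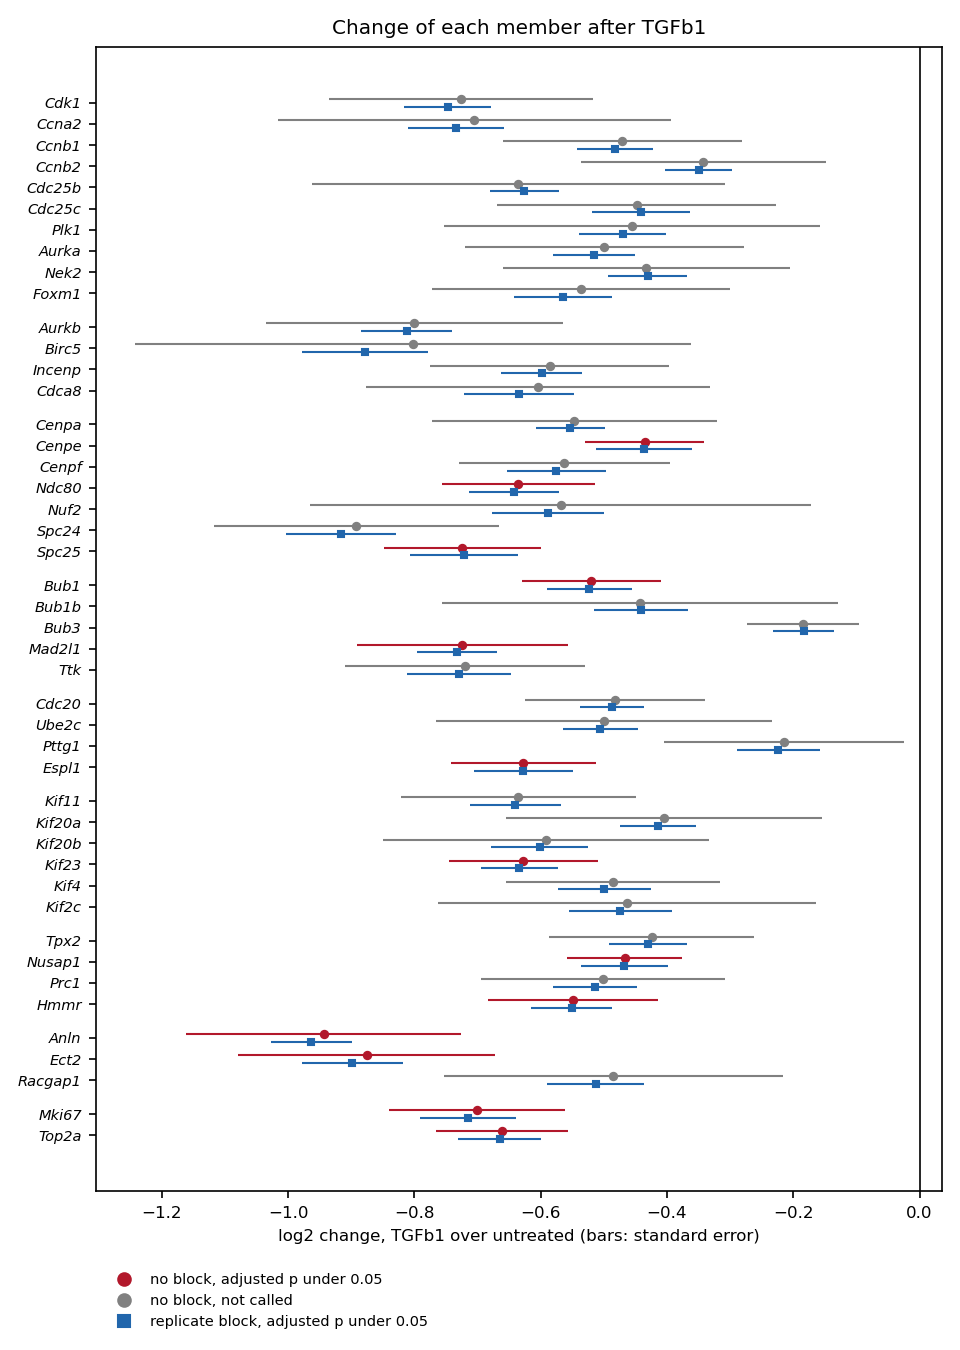
Log2 change of each of the 45 genes with TGFb1 over untreated cells (x axis; bars are 1 standard error, n = 3 libraries per group), from edgeR without a block (circles, red where called and grey where not) and with the library code as a block (blue squares, all called). All points lie left of 0, and the blue bars are shorter than the bars of the fit without a block.

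**Figure D3:**
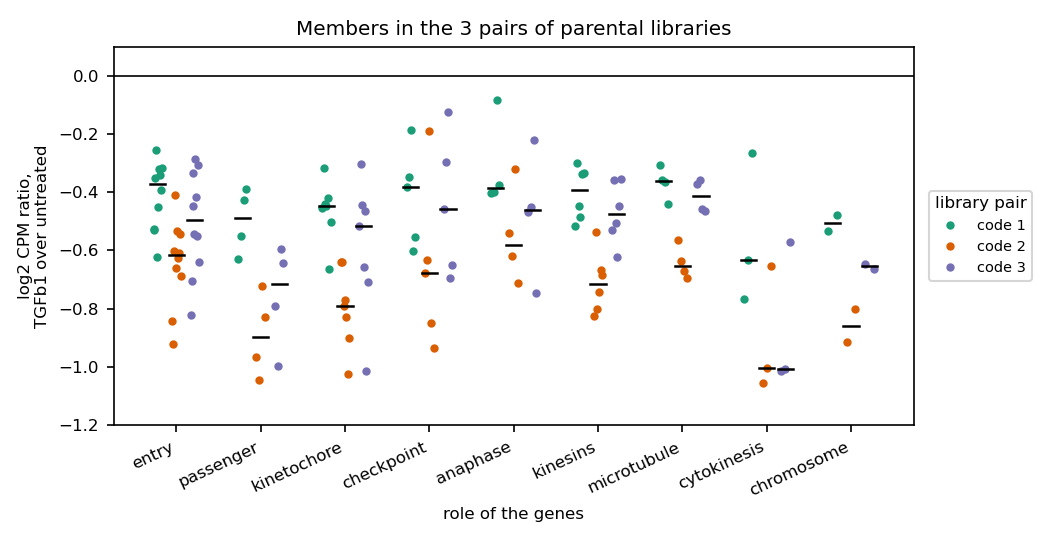
Log2 ratio of CPM, TGFb1 over untreated, inside each of the 3 pairs of parental libraries that share a code (colours), for the 45 genes by role (x axis); black bars are medians. Every point lies below 0, and the pair with code 2 has the lowest median over the 45 genes, at −0.69.

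Of the 10 genes for entry into mitosis none was called without the block, and all 10 were with it (median log2 change −0.49 and −0.50). Cdk1, the kinase that drives entry, had 202.3, 138 and 123.8 CPM with TGFb1, against 291.9, 247.2 and 219 CPM in untreated cells. The groups did not overlap, and the level was 1.65-fold lower (log2 change −0.73 ± 0.21 SE, adjusted p = 0.079, or 2.8e-04 with the block). Its partner cyclin Ccnb1 had 128.1, 85.19 and 91.7 CPM with TGFb1 and 163.3, 129.2 and 125 CPM in untreated cells (1.39-fold lower, adjusted p = 0.18, or 8.5e-04 with the block). TGFb1 replicate 1 lay above untreated replicate 3 here. The polo-like kinase Plk1, which acts at centrosomes and kinetochores, had 98, 60.18 and 51.92 CPM with TGFb1 and 122.2, 92.95 and 69.24 CPM in untreated cells. The groups overlapped again (1.37-fold lower, adjusted p = 0.42, or 0.0017 with the block). Foxm1, the transcription factor that activates many G2 genes, had 110, 70.96 and 63.06 CPM with TGFb1 and 137, 114.4 and 98.13 CPM in untreated cells, also with overlap (1.45-fold lower, adjusted p = 0.22, or 0.0014 with the block). The other 6 of this group are the cyclins Ccna2 and Ccnb2, the Cdk1-activating phosphatases Cdc25b and Cdc25c and the centrosome kinases Aurka and Nek2. Their log2 changes lay between −0.71 (Ccna2) and −0.34 (Ccnb2), with an adjusted p of 0.22 to 0.34 without the block.

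The chromosomal passenger complex, which corrects faulty kinetochore attachments and later marks the division plane, gave the same picture, with 0 of 4 genes called without the block and 4 of 4 with it. Its kinase Aurkb had 74.16, 52.73 and 44.18 CPM with TGFb1, against 114.8, 103.1 and 76.39 CPM in untreated cells. All TGFb1 values were below all untreated values (1.74-fold lower, adjusted p = 0.083, or 2.2e-04 with the block). Birc5 (survivin), which docks the complex at centromeres, had 99.38, 46.75 and 34.82 CPM with TGFb1 and 145.4, 96.55 and 69.44 CPM in untreated cells. It was 1.74-fold lower too, with the widest error of the 45 genes (log2 change −0.80 ± 0.44 SE, adjusted p = 0.33, or 8.0e-04 with the block). TGFb1 replicate 1 exceeded untreated replicates 2 and 3. The scaffold Incenp and the subunit Cdca8 (borealin) had log2 changes of −0.59 and −0.60.

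At the centromere and kinetochore, the site where microtubules hold the chromosome, Spc25, Ndc80 and Cenpe were called lower without the block. The other 4 of 7 genes were lower but not called (median log2 change of the 7 −0.57). Spc25, a subunit of the NDC80 complex that grips microtubules, had 29.79, 27.22 and 26.11 CPM with TGFb1, against 42.2, 50.87 and 42.7 CPM in untreated cells. The groups were well apart (1.65-fold lower, adjusted p = 0.016, or 7.0e-04 with the block). Nuf2, another subunit of the same complex, had 76.39, 39.18 and 33.59 CPM with TGFb1 and 102.3, 69.65 and 46.36 CPM in untreated cells, with overlap between the groups (1.48-fold lower, adjusted p = 0.45, or 0.0020 with the block). Ndc80 itself was 1.55-fold lower (adjusted p = 0.021) and Spc24, the fourth subunit, 1.86-fold lower (adjusted p = 0.053, or 2.9e-04 with the block). The kinetochore motor Cenpe was 1.35-fold lower (adjusted p = 0.033). The centromeric histone Cenpa and the large kinetochore protein Cenpf had log2 changes of −0.55 and −0.56.

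Among the 5 spindle checkpoint genes, which delay anaphase while kinetochores are unattached, Bub1 and Mad2l1 were called lower without the block. The kinase Bub1 had 85.27, 70.09 and 73.47 CPM with TGFb1, against 111.2, 112.1 and 100.9 CPM in untreated cells. Every TGFb1 value was lower (1.43-fold, adjusted p = 0.030). Bub1b (BubR1), part of the mitotic checkpoint complex, had 140.5, 89.11 and 74.9 CPM with TGFb1 and 178.5, 138 and 91.87 CPM in untreated cells, an overlapping pattern (1.36-fold lower, adjusted p = 0.46, or 0.0033 with the block). Mad2l1 (Mad2), which binds Cdc20, was 1.65-fold lower (adjusted p = 0.040) and the kinase Ttk (Mps1) likewise 1.65-fold (adjusted p = 0.060, or 6.0e-04 with the block). Bub3, the adaptor of Bub1 and BubR1, had the smallest change of the 45 genes, 1.14-fold lower (adjusted p = 0.26, or 0.020 with the block). Its values were 134, 124.9 and 125.5 CPM with TGFb1 and 152.3, 142.5 and 136.8 CPM in untreated cells, without overlap.

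Of the 4 genes of anaphase, 1 was called without the block. Espl1 (separase), the protease that cuts cohesin, had 74.08, 70.88 and 61.89 CPM with TGFb1, against 96.13, 116.1 and 103.7 CPM in untreated cells. The groups were apart (1.55-fold lower, adjusted p = 0.019). Pttg1 (securin), which inhibits separase until anaphase, had 57.56, 42.74 and 38.84 CPM with TGFb1 and 60.98, 53.34 and 45.2 CPM in untreated cells, with overlap (1.16-fold lower, adjusted p = 0.57, or 0.030 with the block). This was the largest adjusted p of the 45 with the block. Cdc20, the activator of the anaphase-promoting complex, and its ubiquitin-conjugating enzyme Ube2c had log2 changes of −0.48 and −0.50 (adjusted p = 0.085 and 0.31).

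The 6 mitotic kinesins move or bundle spindle microtubules, and 1 of them was called without the block. Kif23, a motor of the central spindle needed for cytokinesis, had 129.1, 101.5 and 105.8 CPM with TGFb1, against 180.5, 170 and 162.9 CPM in untreated cells. There was a clear gap between the groups (1.54-fold lower, adjusted p = 0.021). Kif2c (MCAK), which takes microtubules apart at centromeres, had 72.15, 43.33 and 39.61 CPM with TGFb1 and 90.91, 69.61 and 50.64 CPM in untreated cells, and these overlapped (1.38-fold lower, adjusted p = 0.41, or 0.0035 with the block). Kif11 (Eg5), which pushes the spindle poles apart, was 1.55-fold lower (adjusted p = 0.082). Kif20a, Kif20b and the chromokinesin Kif4 had log2 changes of −0.40, −0.59 and −0.49.

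The genes of the spindle microtubule-associated proteins Nusap1 and Hmmr were called lower without the block, and those of Tpx2 and Prc1 only with it. Nusap1, which bundles microtubules near chromosomes, had 103.9, 93.01 and 102.4 CPM with TGFb1, against 133, 144.5 and 131.3 CPM in untreated cells. The spread within each group was small beside the gap (1.38-fold lower, adjusted p = 0.023). Prc1, which crosslinks the midzone, had 191.1, 128 and 132.5 CPM with TGFb1 and 246, 203.6 and 181.9 CPM in untreated cells (1.42-fold lower, adjusted p = 0.17, or 0.0010 with the block). TGFb1 replicate 1 lay above untreated replicate 3. Hmmr was 1.46-fold lower (adjusted p = 0.047) and Tpx2, the activator of Aurora A on the spindle, 1.34-fold lower (adjusted p = 0.16, or 0.0015 with the block).

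The cytokinesis genes held the largest change. Anln (anillin), the scaffold of the contractile ring, had 408.7, 283.2 and 246.8 CPM with TGFb1, against 695.5, 588.9 and 499.2 CPM in untreated cells. It was 1.92-fold lower (log2 change −0.94 ± 0.22 SE, adjusted p = 0.040, or 7.7e-05 with the block), and the groups did not overlap. Ect2, the exchange factor that switches on RhoA at the cell equator, was 1.84-fold lower (adjusted p = 0.041). Racgap1, its partner at the central spindle, had 197.7, 130 and 103.5 CPM with TGFb1 and 237.7, 204.6 and 153.6 CPM in untreated cells, where TGFb1 replicate 1 lay above untreated replicate 3 (1.40-fold lower, adjusted p = 0.33, or 0.0020 with the block).

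Both genes of the condensed chromosome fell. Top2a, the topoisomerase that untangles sister chromatids, had 693.2, 582.2 and 695.3 CPM with TGFb1, against 965.2, 1016 and 1102 CPM in untreated cells. This was the smallest p of the 45 genes (1.58-fold lower, log2 change −0.66 ± 0.10 SE, adjusted p = 0.012). Mki67, whose protein Ki-67 coats mitotic chromosomes and is used as a marker of cycling cells, had 319.6, 226 and 291.4 CPM with TGFb1 and 462.5, 426.3 and 455.8 CPM in untreated cells. All 3 treated values lay below all 3 untreated ones (1.63-fold lower, adjusted p = 0.025).

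Other cell cycle genes were described from 4 further lists, to be read against all genes tested, of which 4.92% were called lower and 6.14% higher without the block and 22.5% lower and 22.4% higher with it. Of 66 other mitosis genes 63 were tested, and 17 were called lower and 0 higher without the block (56 lower and 2 higher with it; median log2 change −0.60). Those with the smallest p were the condensin II subunits Ncapg2 (1.93-fold lower, adjusted p = 0.0054) and Ncapd3 (1.76-fold lower, adjusted p = 0.0096) and the centromere protein gene Cenpn (1.77-fold lower, adjusted p = 0.0093). The 2 higher with the block were the anaphase-promoting complex subunits Cdc16 and Cdc27, named after their values were seen, with log2 changes of 0.21 and 0.20 in that fit (adjusted p = 0.019 and 0.028). Of 18 regulators in the DREAM, MuvB and E2F families, 3 were called lower and 0 higher (12 lower and 1 higher with the block). These were Mybl2 (B-Myb, 1.95-fold lower, adjusted p = 0.021), E2f7 (1.88-fold lower, adjusted p = 0.020) and E2f1 (1.86-fold lower, adjusted p = 0.026).

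DNA replication and S phase genes gave the largest share of calls of these lists without the block. All 36 were tested, 20 were lower and 0 higher without the block, and 36 were lower with it, at a median log2 change of −0.81. The clamp loader subunit Rfc4 was 2.10-fold lower (adjusted p = 0.0056) and the S phase cyclin Ccne2 2.11-fold lower (adjusted p = 0.0091). Among 17 tested genes of G1 cyclins, CDK inhibitors and arrest, 4 were lower and 2 higher (6 lower and 4 higher with the block). Ccnd1 (cyclin D1), which starts G1 progression, had 707.4, 537.2 and 356.9 CPM with TGFb1 and 1738, 1515 and 1055 CPM in untreated cells (2.72-fold lower, adjusted p = 0.026). Cdk6 and Cdk2 were 1.97-fold and 1.62-fold lower (adjusted p = 0.0082 and 0.020).

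Both genes called higher in that list were stress and growth arrest genes. Gadd45a had 202.8, 167.5 and 193.9 CPM with TGFb1, against 47.47, 35.61 and 36.3 CPM in untreated cells (4.67-fold higher, adjusted p = 0.0015). Gadd45b had 75, 66.69 and 68.68 CPM with TGFb1, against 16.17, 19.72 and 20.87 CPM in untreated cells (3.67-fold higher, adjusted p = 0.0014). The Cdk inhibitor Cdkn1a (p21) had 45.84, 27.2 and 15.09 CPM with TGFb1 and 31.58, 65.11 and 33.03 CPM in untreated cells, an overlap (adjusted p = 0.52, or 0.18 with the block). Cdkn2b (p15), another inhibitor known as a TGFb target in epithelial cells, had 0 counts in all 18 libraries, which allows a level of up to 0.082 CPM in the library with the smallest scaled size (3 counts, counting error only). Cdkn2d, another inhibitor of the list, was called 1.89-fold lower (edgeR adjusted p = 0.038, or 4.1e-04 with the block). Cdkn2c was called lower only with the block (adjusted p = 0.063, or 0.0022 with the block). Cdkn1b was called in neither fit (adjusted p = 0.59, or 0.15 with the block). These inhibitors, with Cdkn1a and Cdkn2b, were chosen after their values were seen.

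**Figure D4:**
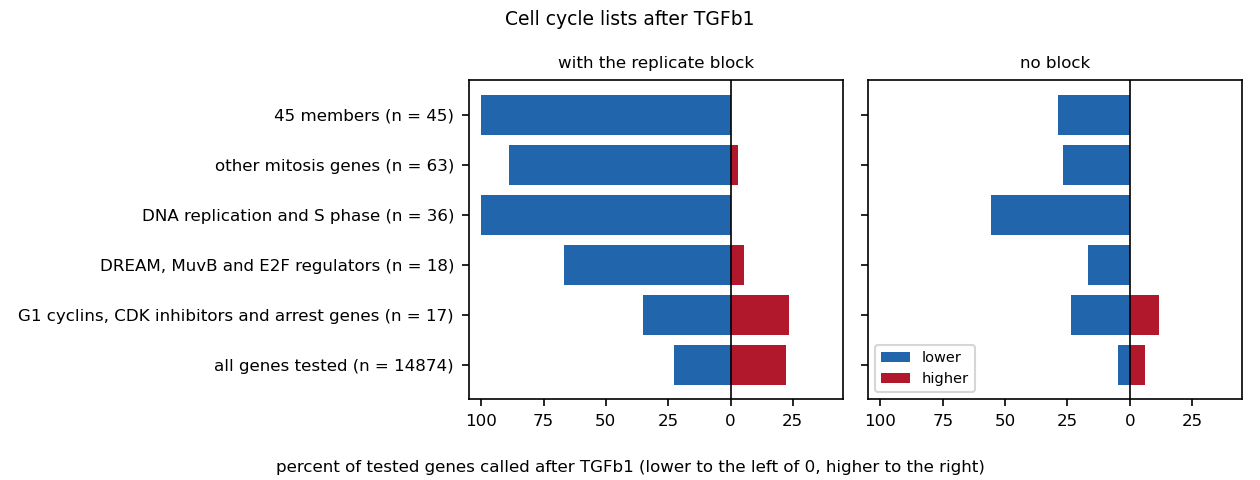
Percent of the tested genes of each cell cycle list, and of all 14874 genes tested, called lower (blue, left of 0) or higher (red, right of 0) with TGFb1, with the library code as a block (left panel) and without it (right panel). The 45 genes and the replication list reach 100% lower with the block, while all genes divide into 22.5% lower and 22.4% higher.

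The second pair of comparisons asked how the mitotic genes of each stable line differed between a collagen type I coat and plastic. The changes were small and lay mostly on the lower side. The labels do not say whether collagen and plastic cultures were grown on the same days. A difference between days cannot be told apart from the coat. In Wisp1 cells 20 of 45 genes were called, 16 lower and 4 higher on collagen (median log2 change −0.06, range −0.32 to 0.24), where 40.4% of all 13953 genes tested were called (19.1% lower, 21.3% higher). In EV cells 20 of 45 were called as well, 18 lower and 2 higher (median −0.08, range −0.29 to 0.24), where 36.5% of all genes were called (17.3% lower, 19.2% higher). With all 18 libraries in one fit, 1 of 45 was called in each line, and the share of all genes called in that fit is not given here. In the 12-library fit the called share of the 45, 44.4%, was thus near that of all genes in both lines, and the calls lay mostly on the lower side. Collagen libraries lay wholly below plastic libraries for 28 genes (62.2%) in Wisp1 cells and 27 (60%) in EV cells, where 28.7% of all genes did so in Wisp1 cells and 26.9% in EV cells. They lay wholly above for 4 genes (8.89%) in Wisp1 cells and 3 (6.67%) in EV cells. Over all genes the share wholly above was 22.8% in Wisp1 cells and 21.1% in EV cells.

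There were 17 mitotic genes called in both lines in the same direction, which is 85% of the calls of each line. None was called in opposite directions. The share of calls common to both lines is not given here for all genes tested. The 85% therefore cannot be weighed against it or read as particular to the mitotic genes. The 15 lower in both were Ccna2, Ccnb1, Plk1, Aurka, Nek2, Cdca8, Nuf2, Bub1, Bub1b, Cdc20, Kif20a, Kif20b, Tpx2, Prc1 and Ect2, and the 2 higher in both were Cdc25b and Birc5. Aurkb, Nusap1 (both higher) and Kif23 (lower) were called in Wisp1 cells and not in EV cells; Mad2l1, Pttg1 and Hmmr (all lower) were called in EV cells and not in Wisp1 cells. None of these 6 was called in the test of the difference between the lines given at the end. The lines share no library in these comparisons.

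The kinase Aurka (Aurora A), which matures centrosomes, had 94.54, 100 and 92.2 CPM on collagen against 121.2, 120.6 and 123.2 CPM on plastic in Wisp1 cells. In EV cells it had 91.96, 97.25 and 98.46 CPM on collagen against 120, 122.4 and 115.2 CPM on plastic. The gap was wide in both lines (1.25-fold lower in Wisp1 cells, adjusted p = 5.8e-05, and 1.22-fold lower in EV cells, adjusted p = 1.5e-04). The checkpoint gene Bub1b had 185.5, 197.2 and 189.1 CPM on collagen against 239.8, 241 and 230.6 CPM on plastic in Wisp1 cells, and 180.7, 187.5 and 193.6 CPM against 234.7, 239.1 and 225.8 CPM in EV cells. It was 1.22-fold lower in each (adjusted p = 1.2e-04 in Wisp1 cells and 1.3e-04 in EV cells).

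Bub1 had 118, 122.5 and 117.3 CPM on collagen against 140.6, 143.5 and 140.8 CPM on plastic in Wisp1 cells, and 121.1, 120.1 and 118.8 CPM against 150.2, 144.5 and 142.9 CPM in EV cells. Its log2 change was −0.22 ± 0.04 SE in Wisp1 cells and −0.25 ± 0.04 SE in EV cells. Nek2, a kinase that splits centrosomes, had 126.8, 130.9 and 127.7 CPM on collagen against 159.5, 160.5 and 147.8 CPM on plastic in Wisp1 cells, and 119.3, 121.9 and 128.1 CPM against 147.3, 158.7 and 145 CPM in EV cells. In neither gene did the substrates overlap (Nek2 log2 change −0.25 and −0.26 in Wisp1 and EV cells, adjusted p = 8.6e-04 and 7.2e-04).

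Tpx2 had 221.2, 228.9 and 225.6 CPM on collagen against 267.3, 262.5 and 258.8 CPM on plastic in Wisp1 cells, and 214.1, 223.3 and 225.1 CPM against 261.1, 258.9 and 255.2 CPM in EV cells (log2 change −0.20 in each). Cdc25b, a phosphatase that activates Cdk1, went the other way, with 131.4, 127.5 and 125.3 CPM on collagen against 109.2, 112.2 and 110 CPM on plastic in Wisp1 cells, and 125.7, 120.5 and 120.1 CPM against 106.8, 110.7 and 99.53 CPM in EV cells. All collagen values were above all plastic values (1.18-fold higher in each, adjusted p = 7.7e-04 in Wisp1 cells and 0.0010 in EV cells).

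Cdca8, Ect2 and Kif20b were lower on collagen by log2 changes of −0.21, −0.14 and −0.17 in Wisp1 cells and −0.18, −0.18 and −0.17 in EV cells, all called. Hmmr had 192.6, 188.3 and 189.8 CPM on collagen against 212.3, 212 and 201.5 CPM on plastic in Wisp1 cells (log2 change −0.11, adjusted p = 0.060), and 190.2, 190 and 181.8 CPM against 224.1, 221.8 and 210.4 CPM in EV cells (log2 change −0.20, adjusted p = 0.0023). It was below plastic in both lines and passed the threshold in EV cells. Mki67 and Top2a were not called in either line: for Mki67 the log2 change was −0.09 ± 0.07 SE in Wisp1 cells and 0.03 ± 0.07 SE in EV cells. Within the chromosomal passenger complex the members moved apart, Birc5 rising 1.13-fold in Wisp1 cells and 1.14-fold in EV cells while Cdca8 fell.

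The other lists held calls in both directions on collagen, and their counts stand against 40.4% of all genes called in Wisp1 cells and 36.5% in EV cells. Of 63 other mitosis genes, 16 were lower and 4 higher in Wisp1 cells and 20 lower and 4 higher in EV cells. Depdc1a was 1.26-fold lower in each line, and Kif14 was 1.22-fold lower in Wisp1 cells and Cenpw 1.31-fold lower in EV cells. Fzr1, which directs the anaphase-promoting complex in late mitosis and G1, was 1.17-fold higher in Wisp1 cells and 1.18-fold higher in EV cells. The Cenpa chaperone Hjurp was 1.14-fold higher in Wisp1 cells and 1.15-fold higher in EV cells. Of 36 replication genes, 6 were lower and 4 higher in Wisp1 cells and 3 lower and 7 higher in EV cells. The kinase subunit Dbf4 was 1.31-fold lower in Wisp1 cells and 1.30-fold lower in EV cells, and thymidine kinase Tk1 1.23-fold higher in Wisp1 cells and 1.28-fold higher in EV cells.

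Of the 18 DREAM and E2F regulators, 5 were lower and 5 higher in Wisp1 cells and 1 lower and 5 higher in EV cells. Lin9, a MuvB subunit, had a log2 change of −0.21 in Wisp1 cells and −0.18 in EV cells, and the repressor E2f8 0.33 in Wisp1 cells and 0.39 in EV cells. Of 17 G1 and arrest genes, 5 were lower and 4 higher in Wisp1 cells and 5 lower and 6 higher in EV cells. Gadd45b was 2.72-fold lower in Wisp1 cells and 2.80-fold lower in EV cells, and the antiproliferative gene Btg1 1.59-fold higher in Wisp1 cells and 1.60-fold higher in EV cells. Beside these, the 6 epithelial markers summed to 2924 to 3822 CPM on collagen and 2594 to 2882 CPM on plastic in Wisp1 cells, and to 3001 to 3329 CPM on collagen and 2585 to 2790 CPM on plastic in EV cells. The 6 fibroblast markers summed to 26.7 to 33.27 CPM on collagen and 17.04 to 19.19 CPM on plastic in Wisp1 cells, and to 25.18 to 30.04 CPM on collagen and 16.45 to 21.96 CPM on plastic in EV cells. The 6 leukocyte markers summed to 12.84 to 19.94 CPM on collagen and 8.213 to 12.55 CPM on plastic in Wisp1 cells, and to 10.36 to 15.17 CPM on collagen and 7.615 to 9.783 CPM on plastic in EV cells. In both lines Krt8, Krt18 and Pdgfra were called higher and Cdh1 and Col1a2 lower on collagen, while Cd68 was called higher in Wisp1 cells and Cldn7 lower in EV cells. Their part in the result was not tested.

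The third pair of comparisons asked whether Wisp1 overexpression moved the mitotic genes. On collagen edgeR called 0 of 45 genes, none at an unadjusted p under 0.05 either, where 10 of 13953 genes (0.0717%) were called and 707 had such an unadjusted p. The log2 changes of the 45 lay between −0.11 and 0.09 with a median of 0.00, and their standard errors between 0.03 and 0.07. On plastic it called 0 of 45, again with none at an unadjusted p under 0.05, where 2 genes (0.0143%) were called and 822 had such an unadjusted p. The log2 changes lay between −0.12 and 0.07 with a median of 0.01, and the largest estimate, that of Ndc80, was a 1.09-fold difference. Ndc80 had 86.66, 90.69 and 88.83 CPM on plastic in Wisp1 cells against 99.52, 100.7 and 88.13 CPM in EV cells (log2 change −0.12 ± 0.06 SE, adjusted p = 0.83).

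Wisp1 and EV libraries with the same number deviated together on each substrate (correlations of 0.65, 0.30 and 0.48 on collagen and 0.22, 0.34 and 0.37 on plastic), so a block within each substrate was fitted too. It called 1 of 45 genes on collagen, where 358 genes (2.57%) were called, and 0 of 45 on plastic, where 440 genes (3.15%) were. The gene on collagen was Mki67, with 622.1, 736.5 and 760.8 CPM in Wisp1 cells against 682.9, 800.9 and 797.1 CPM in EV cells. Each Wisp1 library was below the EV library of its number while the groups overlapped (1.08-fold lower, log2 change −0.11 with the block, adjusted p = 0.027, against 1 without it). With the block, 5 of 45 genes on collagen and 11 of 45 on plastic had an unadjusted p under 0.05, where 2252 of 13953 genes on collagen and 2501 on plastic did.

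The test of the difference between the substrates in the Wisp1 effect, which is also the test of the difference between the lines in the collagen effect, called 0 of 45 genes and 0 of 13953 genes in edgeR. At an unadjusted p under 0.05 it held 0 of 45 and 410 of all genes. With the block within each substrate it called 0 of 45, where 70 genes (0.502%) were called, and 7 of 45 had an unadjusted p under 0.05, where 2039 of 13953 genes did. The largest estimate among the 45 was that of Nusap1 (log2 difference 0.15 ± 0.08 SE, adjusted p = 0.97).

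**Figure D5:**
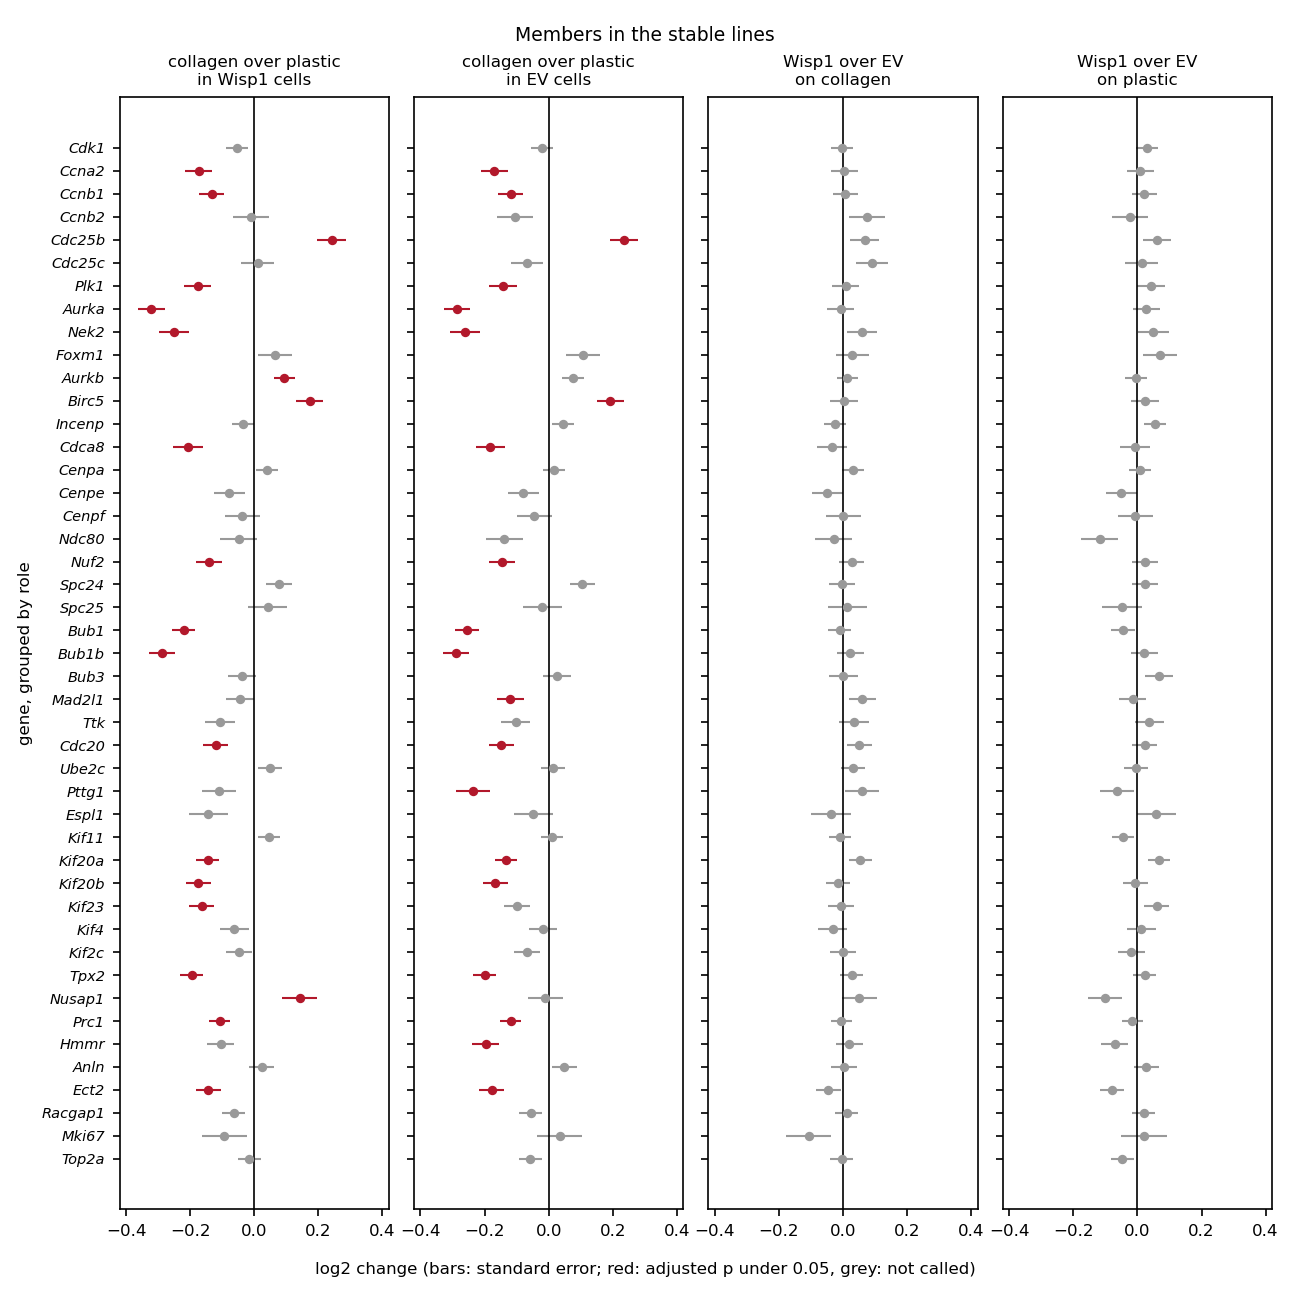
Log2 change of each of the 45 genes (rows, by role) for collagen over plastic in Wisp1 and in EV cells and for Wisp1 over EV on collagen and on plastic, with bars of 1 standard error (n = 3 libraries per group); red points were called by edgeR and grey points were not. The 2 collagen panels hold 20 red points each, from −0.32 (Aurka in Wisp1 cells) to 0.24 (Cdc25b), and the 2 Wisp1 panels hold none.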

How the data were processed

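Raw counts per gene symbol were used as deposited, with no normalization by the authors. The mouse build mm9 and the tools STAR, BWA, HTSeq, CASAVA, limma and R (version 3.2.4) are named in the submitters' processing notes, without roles. Which annotation and strand setting the counting used is not given in the sources used here. Libraries were poly(A)-selected and stranded, per the labels' protocols. The 5 summary entries of each file (13.9 to 17.5% of its counted reads) were left out.

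Genes passing filterByExpr were tested with edgeR 4.0.16 in R 4.3.3 (TMM, robust quasi-likelihood F tests): the 6 parental libraries in one fit, the 12 stable-line libraries in another with 4 group means. P-values were adjusted by Benjamini-Hochberg over all genes of a comparison, and a gene was called under 0.05. CPM are TMM-scaled over 18 libraries. A standard error is the size of the log2 change divided by the root of its F value. Alternatives used DESeq2 1.42.0, limma 3.58.1 (voom), other scalings, filters and sample sets. A library number was used as a block, as an alternative, where every same-numbered pair correlated above 0.1. This held for TGFb1 against untreated and for Wisp1 against EV on each substrate. Between collagen and plastic it did not (0.20, −0.17 and 0.38 in EV cells; −0.07, −0.14 and −0.05 in Wisp1 cells). Replicates differed by more than counting error (chi-squared over degrees of freedom of 3.25 to 212.5 in 18 pairs). Scripts were tested on simulated counts. The genes, the other lists and the roles were chosen with earlier results of these data known. Named were members called in the stable lines (10 with the smallest p), in each role the members with the smallest and largest TGFb1 p, and 7 further chosen genes. From the other lists came the genes with the smallest p in each direction. A gene that this rule names is not reported here. Promoters carry the build GRCm38.p6 and counts mm9, matched by symbol only. A planned search for protein motifs was not run.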

Additional observations from a re-analysis of the deposited data

How the results depend on the processing

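Without a block, 13 of 45 genes were called lower with TGFb1. The count was 21 with DESeq2, 37 with all 18 libraries in one fit, 45 with the replicate block, and 0 to 28 when one library was left out. Of all genes tested, 11.1% were called in either direction in edgeR without a block and 44.9% with the replicate block. For the other fits without a block that share is not given here, so their counts cannot be weighed against it. The replicate block, repeated without one pair of libraries (an alternative added after seeing the data), called 44 without replicate 1, 43 without replicate 2 and 45 without replicate 3. Of all genes tested it called 6261, 4344 and 6344, in that order. Other scalings, filters and limma-voom gave 13 to 15, and the median log2 change stayed between −0.77 and −0.43 in all these fits. With collagen, the count was 20 in each line, 16 to 20 in Wisp1 cells and 16 to 22 in EV cells when a library was left out, and 1 in each line with all 18 libraries in one fit. In that fit the medians were −0.09 in Wisp1 cells and −0.11 in EV cells, against −0.06 and −0.08. The share of all genes called on collagen in that fit is not given here. Leaving out one library gave medians of −0.10 to −0.06 in Wisp1 cells and −0.11 to −0.08 in EV cells. A replicate block over all 4 groups, whose numbers do not pair the substrates, called 22 in Wisp1 cells and 21 in EV cells, where 44.7% of all genes were called in Wisp1 cells and 40.8% in EV cells, and it changed no other count. For Wisp1 against EV on collagen the replicate block within each substrate called 1 gene, Mki67, and no other fit called any. The cause of these moves was not tested. No change called for a named gene of the 45 turned its sign under these alternatives. The interaction's median log2 change, which lies at 0.00 and has no test, ran from −0.01 to 0.02 when a library was left out. Each of the 45 genes had at least 1105 counts in every library, and no fit at reduced depth was made.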
